A study of Rattus norvegicus with 6 samples.

Results

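The genes described here are 9 rat genes of the type I interferon response: Stat2, Irf1, Irf7 and Irf9, which encode transcription factors, and Isg15, Mx1, Mx2, Ifit2 and Ifit3, which encode antiviral proteins. They were chosen by symbol, and each of the 9 had at least 1 probe on the array. Together they had 10 probes of 30367, and they were 9 of the 15154 gene symbols that could be assigned to probes. Female Wistar pups had received intraperitoneal injections on PNDs 3 and 5, and their ovaries were collected on PND 7. LPS-treated pups were given 0.05 mg/kg of lipopolysaccharide from Salmonella Enteritidis, a component of the bacterial outer membrane, and saline-treated pups were given the same volume of saline free of pyrogens. The labels name no genetic difference between the groups. RNA of whole ovaries was hybridized to 6 single-colour Agilent arrays, 3 for each treatment. The methods describe treatment of whole litters, so litter and treatment cannot be told apart, and describe biological replicates made of ovaries from several animals of more than 1 litter per treatment. Which of these animals and litters went into each array is not stated in the sources used here. The p-values therefore measure only the spread between these arrays.

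Interferons are secreted proteins that bind receptors on the same or neighbouring cells. Type I interferon receptors act through the kinases Jak1 and Tyk2 to phosphorylate STAT2, which joins IRF9 in a complex, ISGF3, that binds interferon-stimulated response elements (ISREs). Interferon gamma acts through Jak1 and Jak2, on genes that carry gamma-activated sequences (GAS elements), and induces IRF1. LPS can induce interferon beta through Toll-like receptor 4 and the adaptor Ticam1, and IRF7 amplifies the production of type I interferons.

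Promoter sequences are shown for the members whose upstream region held one of these core letter patterns, so that the elements can be seen beside the genes. RefSeq promoters of the GRCr8 assembly were listed for 6 of the 9 genes (Irf7, Ifit3, Stat2, Irf1, Mx1 and Irf9), and the 250 bases before each start were searched on both strands. The ISRE core (GAAA, any 2 bases, GAAA) occurred in 3.41% of all 33469 promoters and in those of Irf7 and Ifit3. The GAS core (TTC, any 3 bases, GAA) occurred in 7.67% of them and in those of Irf1 and Irf9. Each sequence is written 5′ to 3′ on the strand of its gene with the match in capitals, and an ISRE core on the opposite strand reads as a pair of TTTC.
Irf7, chr1:205800058-205800117, minus strand: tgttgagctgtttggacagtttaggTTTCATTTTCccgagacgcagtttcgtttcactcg
Ifit3, chr1:241527257-241527316, plus strand: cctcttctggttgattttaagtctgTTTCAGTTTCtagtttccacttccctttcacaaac
Irf1, chr10:38417768-38417826, plus strand: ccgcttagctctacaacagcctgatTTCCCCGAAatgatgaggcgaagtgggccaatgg
Irf9, chr15:33065712-33065770, plus strand: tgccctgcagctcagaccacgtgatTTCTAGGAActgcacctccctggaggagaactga
The match began 69 bases upstream of the start in Irf7, 44 in Ifit3, 142 in Irf1 and 99 in Irf9. A match describes letters in this window and was not tested as a binding site.

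Levels are log2 processed signals from which the 75th percentile of the same array was subtracted, so that a level of 0 equals that percentile. A probe was taken as well above background on an array where the scanner software judged all of its spots so. The ovary's own markers were present on all 6 arrays: all 8 oocyte markers with a probe were well above background on each array, and so were 10 or 11 of the 11 granulosa cell markers. The 3 saline arrays were not alike. Saline replicates 2 and 3 carried transcripts of the adrenal gland: the summed level of 9 adrenal cortex markers, relative to the 75th percentile, was 3.50 on saline replicate 1, 190 on saline replicate 2 and 244 on saline replicate 3, against 2.09 to 3.02 on the LPS arrays. All 9 were well above background on saline replicates 2 and 3, and 5 or 6 of them on each of the other arrays. Cyp21a1, the steroid 21-hydroxylase of the adrenal cortex and the brightest of these, had log2 levels of 0.03, 5.96 and 6.67 on saline arrays and of 0.24, -0.59 and -0.95 on the LPS arrays. The 9 adrenal medulla markers had summed levels of 5.52, 88.3 and 54.0 on saline arrays and of 2.90 to 5.30 on the LPS arrays. Th, tyrosine hydroxylase of catecholamine synthesis and the brightest of them, had log2 levels of 1.91, 4.40 and 3.81 on saline arrays and of 1.80, 1.11 and 0.76 on the LPS arrays. Saline replicate 1 had the lowest 75th percentile of processed signal, 2824 against 3941 to 6754 on the other arrays. Its repeated spots agreed least, with a median difference of 0.11 on the log2 scale between spots of 1 probe against 0.04 to 0.06 on the others. Values without saline replicates 2 and 3, which leave 1 saline array, are therefore also given for most of the genes named.

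Among the transcription factors, Stat2 was lower on every LPS array and Irf9 was higher on every LPS array, neither beyond the threshold of the test. Stat2, the subunit of ISGF3 that contributes its activation domain, had log2 levels of -0.69, -0.64 and -0.56 on LPS replicates 1, 2 and 3 and of -0.52, -0.07 and -0.18 on saline replicates 1, 2 and 3. The groups did not overlap, but saline replicate 1 lay next to the LPS arrays. The log2 fold change was -0.37 (standard error, SE, 0.18, 95% interval -0.81 to 0.06, limma adjusted p = 0.372 over all probes). Its value was -0.11 with saline replicates 2 and 3 left out, a distance between saline replicate 1 and the LPS mean, and 0.0035 with no normalization between arrays, a setting that shifted all probes alike, with their median moving from -0.04 to 0.34.

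Irf9, the subunit of ISGF3 that recognises DNA, had log2 levels of -1.53, -1.70 and -1.57 on LPS arrays and of -1.85, -2.01 and -1.85 on saline arrays. The groups did not overlap, and the saline values lay close together. The log2 fold change was 0.30 (SE 0.16, 95% interval -0.08 to 0.68, limma adjusted p = 0.416), which was 1.23-fold higher. It was 0.25 with saline replicates 2 and 3 left out and 0.25 to 0.35 with any 1 array left out. The exact permutation test of a single gene gave p = 0.1 for both Stat2 and Irf9, the smallest that 3 arrays against 3 allow.

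Stat2 and Irf9 thus lay on opposite sides, and the pair was singled out after its values were seen. The log2 level of Irf9 minus that of Stat2 on the same array was -0.84, -1.07 and -1.01 in LPS-treated ovaries and -1.34, -1.94 and -1.66 in saline-treated ovaries. Its mean differed by 0.68 between treatments and by 0.37 between the LPS arrays and saline replicate 1 alone, and since probes differ in brightness only this change, not the sign of the difference, can be read.

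Irf1, the factor that interferon gamma induces, had 2 probes, and the comparison depended on which saline arrays entered it. The brighter probe had log2 levels of 0.76, 1.17 and 1.04 on LPS arrays and of -0.03, 1.59 and 1.53 on saline arrays. The LPS arrays lay between saline replicate 1 and the other saline arrays, and the log2 fold change was -0.04 (SE 0.45, 95% interval -1.11 to 1.02, limma adjusted p = 0.995). The spots of this probe on saline replicate 1 were at 0.70 and -0.75, a difference of 1.45 on the log2 scale, while on the other arrays they differed by 0.02 to 0.30. Without saline replicate 1 the log2 fold change was -0.57, and without saline replicates 2 and 3 it was 1.02, the only 1 of the 9 genes to pass the 2-fold criterion in that fit (limma adjusted p = 0.851). The dimmer probe, with a single spot, had log2 levels of -1.41, -0.91 and -0.87 on LPS arrays and of -1.73, -1.16 and -0.63 on saline arrays. Its groups also overlapped, with a log2 fold change of 0.11 (SE 0.32). It was -0.17 without saline replicate 1 and 0.67 without saline replicates 2 and 3.

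Irf7, the amplifier of type I interferon production, had log2 levels of -1.21, -1.52 and -1.62 on LPS arrays and of -1.30, -1.16 and -1.23 on saline arrays. LPS replicate 1 lay among the saline arrays and the other LPS arrays lay below them. This gave a log2 fold change of -0.22 (SE 0.18, 95% interval -0.64 to 0.21, limma adjusted p = 0.698), and one of -0.15 without saline replicates 2 and 3.

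None of the 5 interferon-induced effectors passed the threshold for a difference between treatments. Isg15, a ubiquitin-like protein that is attached to other proteins in infected cells, had log2 levels of -1.95, -2.40 and -2.48 on LPS arrays and of -2.31, -2.25 and -2.42 on saline arrays. LPS replicate 1 was the highest of the 6 and the groups overlapped, with a log2 fold change of 0.05 (SE 0.20, 95% interval -0.43 to 0.52, limma adjusted p = 0.982) that was 0.03 without saline replicates 2 and 3. Mx2, a dynamin-like GTPase that blocks viral replication, had log2 levels of 1.83, 1.99 and 2.19 on LPS arrays and of 2.26, 1.79 and 1.90 on saline arrays. The groups overlapped throughout, with a log2 fold change of 0.02 (SE 0.20, 95% interval -0.46 to 0.50, limma adjusted p = 0.994) that was -0.26 without saline replicates 2 and 3. With all arrays, the 95% interval of both genes excluded a 2-fold difference in either direction. Mx1 and Mx2 are paralogs, and the files do not hold the probe sequences with which shared hybridization could be checked.

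Mx1, the related GTPase, was dimmer and varied more. Its log2 levels were -2.58, -3.57 and -3.34 on LPS arrays and -2.56, -4.54 and -3.54 on saline arrays. Replicate 1 of each treatment was the highest of its group, and on saline replicate 2 the probe was not well above background and its spots differed by 0.76. Its log2 fold change was 0.38 (SE 0.52, 95% interval -0.87 to 1.63, limma adjusted p = 0.875), and it was -0.12 without saline replicate 2 and -0.61 without saline replicates 2 and 3.

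Ifit2 and Ifit3 belong to a family that binds foreign RNA and restrains its translation. Ifit2 had log2 levels of -3.06, -3.91 and -3.79 on LPS arrays and of -3.82, -3.15 and -2.69 on saline arrays. The groups overlapped because replicate 1 was the highest LPS array and the lowest saline array. This left a log2 fold change of -0.37 (SE 0.36, 95% interval -1.23 to 0.49, limma adjusted p = 0.774), and it was 0.23 without saline replicates 2 and 3. With 1 array left out it lay between -0.67 (without saline replicate 1) and -0.10 (without saline replicate 3). Ifit3 was well above background on no array, with log2 levels of -6.16, -7.12 and -7.58 on LPS arrays and of -6.38, -6.46 and -6.79 on saline arrays. These values bound the signal from above, so its fitted difference, which enters the counts and alternatives of the members, is not read as a change.

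**Figure D1:**
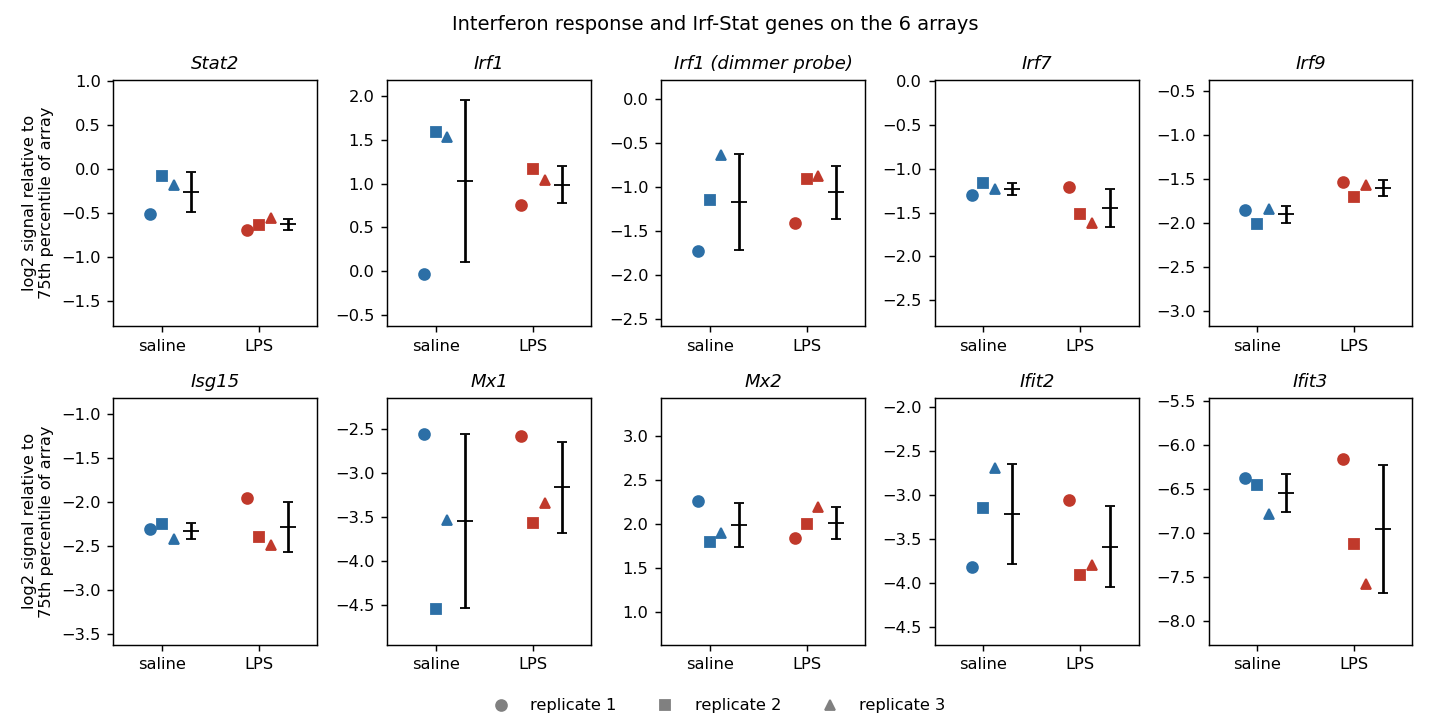
Each panel plots 1 probe, with the log2 signal relative to the array's 75th percentile on the y axis (the same span of log2 units in each panel) and the treatment on the x axis. Blue points are saline arrays, red points are LPS arrays, the marker shape gives the replicate number, and the black bar is the mean with its SD over 3 arrays. Stat2 and Irf9 are the panels without overlap, saline replicate 1 stands below the other saline arrays for Irf1 at -0.03, and Ifit3 was well above background on no array.

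Taken as a set, none of the 9 genes passed the criteria for a difference between treatments at PND 7. At a difference of at least 2-fold with an unadjusted p below 0.05, 0 of the 9 were higher in LPS-treated ovaries, where 0.613% of all probes were, and 0 of the 9 were lower, where 1.08% of all probes were. None had an unadjusted p below 0.05, against 16.5% of all probes (2.46% higher and 14.1% lower) and 4.08% of 17585 probes whose signal exceeded background on every array. This depended on the processing: 1 or 2 members had such a p in 7 of the 21 alternatives, Stat2 in 4 of them (p from 0.0145 to 0.0451 in limma), Irf9 and Irf1 in 2 each, and Ifit3 in 1. The share of all probes fell to 5.79% with normexp, 4.63% without background correction and 4.91% with quantile normalization. Across all probes 0 passed an adjusted p of 0.05 in limma, while 5018 had an unadjusted p below 0.05. Fitted differences were positive for 4 genes and negative for 5, with a median of -0.04, and the median over all probes was also -0.04. The 7 genes well above background on all arrays split into 3 above and 4 below 0, and their median was -0.04 as well. Groups without overlap were found for 1 gene higher (Irf9) and 1 lower (Stat2). Of all probes, 5.02% had all LPS arrays higher and 18.4% had all LPS arrays lower, and for probes exceeding background on every array the shares were 5.53% and 5.87%.

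The precision differed between the genes. For 5 of the 9 (Stat2, Irf7, Irf9, Isg15 and Mx2) the 95% interval lay within a 2-fold difference in both directions, a share of 55.6% against 53.8% of all probes. For the brighter Irf1 probe it reached past 2-fold in both directions, while the dimmer Irf1 probe had an interval of -0.65 to 0.87. For Mx1 it reached past a 2-fold increase only, and for Ifit2 past a 2-fold decrease only. In RNA of a whole ovary, a change in the number of cells of a type and a change in the RNA per cell cannot be told apart.

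**Figure D2:**
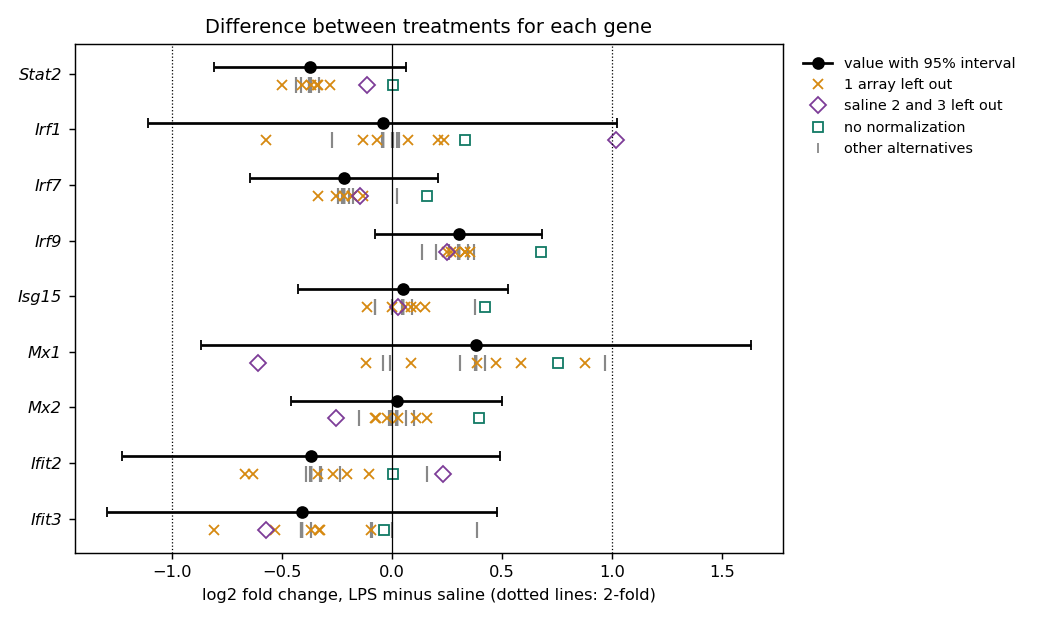
The x axis is the log2 fold change of LPS-treated over saline-treated ovaries, and each row is 1 gene, with the value and its 95% limma interval in black. The symbols under each interval give the value under the alternatives: each array left out in turn, saline replicates 2 and 3 left out, no normalization between arrays, and the others. Irf9 ranged from 0.14 to 0.68 and stayed positive under all 21 alternatives, Irf1 ranged from -0.57 to 1.02, and the Ifit3 row shows signal that was not well above background.

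The genes around these 9 were taken from lists of the interferon pathway. No probe could be assigned to some listed genes, among them Ifnar2, Tyk2, Ticam1 and Rigi, so nothing is said of their levels. Of the 10 interferon ligand and receptor genes with a probe, 0 passed the 2-fold criterion in either direction. Among the 5 ligands, Ifna5, Ifnb1, Ifnk and Ifng were well above background on no array. Ifna4, of the interferon alpha cluster, was well above background throughout, with log2 levels of -2.71, -2.62 and -2.90 on LPS arrays and of -2.24, -2.83 and -2.54 on saline arrays. The groups overlapped, with a log2 fold change of -0.21 (SE 0.21, limma adjusted p = 0.785) that was -0.51 without saline replicates 2 and 3. The 3 genes of the list with an unadjusted p below 0.05 were Ifna5, Ifnk and Ifng, all lower, as 14.1% of all probes were, and all at signals that only bound the level.

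Of the receptors, Ifngr2, the accessory chain for interferon gamma, had log2 levels of 1.26, 0.97 and 0.90 on LPS arrays and of 0.64, 0.84 and 0.81 on saline arrays. All LPS arrays were higher, and the log2 fold change was 0.28 (SE 0.18, limma adjusted p = 0.547), or 0.40 without saline replicates 2 and 3. Il10rb, a chain shared by the receptors for interferon lambda and interleukin 10, had log2 levels of 0.46, 0.32 and 0.43 on LPS arrays and of 0.69, 0.87 and 0.56 on saline arrays. All LPS arrays were lower, with a log2 fold change of -0.30 (SE 0.17, limma adjusted p = 0.456), or -0.28 without them. Ifnar1, a chain of the type I receptor, had a log2 fold change of -0.01 (SE 0.24), and Ifngr1, the chain that binds interferon gamma, had one of -0.10 (SE 0.16).

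Among 14 other Jak, Stat and Irf genes, 0 passed the 2-fold criterion, and 2 had an unadjusted p below 0.05, both lower, where 14.1% of all probes were. These were Irf2 and Irf8, which were well above background on no array. Jak3, a kinase of the common gamma chain receptors, had log2 levels of -1.67, -1.35 and -1.36 on LPS arrays and of -1.34, -0.68 and -0.90 on saline arrays. The groups did not overlap, but saline replicate 1 lay just above the highest LPS array. It had a log2 fold change of -0.49 (SE 0.23, limma adjusted p = 0.342) and of -0.12 without saline replicates 2 and 3. Irf5, a factor downstream of Toll-like receptors, had a log2 fold change of 0.37 (SE 0.21, limma adjusted p = 0.465), or 0.51 without them. Irf3, a factor that TBK1 activates to induce interferon beta, had log2 levels of 1.72, 1.88 and 2.06 on LPS arrays and of 1.77, 2.64 and 2.53 on saline arrays. Saline replicate 1 lay among the LPS arrays, and the log2 fold change was -0.43 (SE 0.27, limma adjusted p = 0.537) with all arrays and 0.11 without saline replicates 2 and 3. It was -0.70 without saline replicate 1 and -0.27 without saline replicate 2.

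Of 11 genes that sense nucleic acids or relay their signal, 0 passed the 2-fold criterion and 3 had an unadjusted p below 0.05, all lower, as 14.1% of all probes were: Tlr9, which was well above background on no array, Myd88 and Mavs. In a fit of probes well above background on all arrays, 2 of 7 were lower. There, 5.87% of probes had such a p in either direction. Without background correction 3 of 11 were lower (4.63% of all probes in either direction). The count was 0 when LPS replicate 2, LPS replicate 3, saline replicate 2 or saline replicate 3 was left out, and 4 without saline replicate 1. Myd88, the adaptor of most Toll-like receptors, had log2 levels of 0.04, -0.16 and -0.21 on LPS arrays and of 0.03, 0.67 and 0.59 on saline arrays. Saline replicate 1 lay among the LPS arrays. Its log2 fold change was -0.54 (SE 0.22, limma adjusted p = 0.298), and it was -0.14 without saline replicates 2 and 3. Mavs, the mitochondrial adaptor of cytosolic RNA sensors, had a log2 fold change of -0.61 (SE 0.26, limma adjusted p = 0.302) and of -0.09 without them. Tbk1, the kinase that activates IRF3, had a log2 fold change of 0.30 (SE 0.20, limma adjusted p = 0.578), or 0.59 without them, with all LPS arrays higher.

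Of 11 inhibitors of interferon signaling, 0 passed the 2-fold criterion and 1 had an unadjusted p below 0.05, higher, as 2.46% of all probes were. This was Pias1, a SUMO ligase that restrains STAT signaling, with a log2 fold change of 0.65 (SE 0.20, limma adjusted p = 0.271) and a signal not well above background on 1 saline array. Fitted differences were positive for 9 of the 11, against 13602 of the 30367 probes, with a median of 0.25 against -0.04 over all probes. For the 8 inhibitors well above background on all arrays the median was 0.11, against 0.02 over such probes. The median of the 11 was 0.15 without saline replicate 2 and 0.08 without background correction. The count past the 2-fold criterion was 1 without saline replicate 1, and 3 with no normalization, which raised all probes alike. Ptpn2, a phosphatase of Janus kinases, had a log2 fold change of 0.31 (SE 0.17, limma adjusted p = 0.463), or 0.34 without saline replicates 2 and 3. Socs2, an inhibitor of cytokine receptors, had one of 0.48 (SE 0.36, limma adjusted p = 0.649), which ran from 0.19 without saline replicate 1 to 0.78 without LPS replicate 1 and was 1.04 without saline replicates 2 and 3. Irf2bp1, a corepressor of IRF2, was lower on all LPS arrays, at -0.26 (SE 0.16, limma adjusted p = 0.526), or -0.23 without saline replicates 2 and 3.

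Of 35 other interferon-stimulated genes with a probe, 1 was higher at the 2-fold criterion and 0 were lower, where 0.613% and 1.08% of all probes were. At an unadjusted p below 0.05, 2 were higher and 3 lower, where 2.46% and 14.1% of all probes were. In a fit of probes well above background on all arrays, 1 of 29 was higher and 5 were lower. There, 5.87% of probes had such a p in either direction. Without background correction 1 of 35 was higher and 5 were lower (4.63% of all probes in either direction). With quantile normalization 0 were higher and 4 lower (4.91%), and without saline replicate 2 the counts were 0 and 2 (5.28%). The median log2 fold change of the 35 was -0.08. The 1 gene at the 2-fold criterion was Oas1k, of the family of oligoadenylate synthetases that activate RNase L. It had log2 levels of -1.82, -0.74 and -0.84 on LPS arrays and of -2.77, -2.33 and -1.62 on saline arrays. The groups overlapped, since LPS replicate 1 lay below saline replicate 3. Oas1k had a log2 fold change of 1.11 (SE 0.40, unadjusted p = 0.0299, limma adjusted p = 0.277). The call held in 12 of the 21 alternatives. It ended when LPS replicate 2, LPS replicate 3, saline replicate 1 or saline replicate 2 was left out (log2 fold changes of 0.91, 0.96, 0.84 and 1.06), with normexp, no background correction or quantile normalization (0.92, 0.71 and 1.04), and in a test without limma's shared spread. A slide row block, which leaves LPS replicate 1 alone against the saline arrays, gave 0.42. Other Oas genes well above background on all arrays had log2 fold changes of 0.38 (Oas1a), -0.11 (Oas1b), 0.22 (Oas1f), 0.33 (Oas1i), -0.16 (Oas2), -0.08 (Oas3) and -0.19 (Oasl2), none with an unadjusted p below 0.05. These genes are close paralogs, and probes may not tell them apart.

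Trim25, the ubiquitin ligase that activates the RNA sensor RIG-I, was singled out after its values were seen. Its log2 levels were -0.70, -0.54 and -0.64 on LPS arrays and 0.08, 0.38 and 0.31 on saline arrays. Every saline array, replicate 1 included, was above every LPS array. With all arrays its log2 fold change was -0.88 (SE 0.17, limma adjusted p = 0.271), and it was -0.70 without saline replicates 2 and 3 and between -0.97 and -0.50 over the 21 alternatives. It did not reach 2-fold in any of them.

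Of 21 genes that respond mainly to interferon gamma, 0 were higher and 1 was lower at the 2-fold criterion, where 1.08% of all probes were lower. At an unadjusted p below 0.05, 4 were lower, where 14.1% of all probes were. The 1 gene at the 2-fold criterion was Cxcl10, a chemokine for T cells. It had log2 levels of -4.50, -4.22 and -4.16 on LPS arrays and of -4.24, -2.27 and -2.37 on saline arrays. Its log2 fold change was -1.33 (SE 0.52, limma adjusted p = 0.287). Its signal was well above background on only 2 arrays of each treatment, and it is named as the only call of its list. The call ended in 12 of 20 alternatives, with a log2 fold change of -0.85 with normexp, -0.60 without background correction and -0.05 without saline replicates 2 and 3. It also ended when any array other than saline replicate 1 was left out, at -1.37 without LPS replicate 2 and -0.99 without saline replicate 2, for example. The immunoproteasome genes among them were highest on the arrays with adrenal transcripts. Psmb8, a subunit of the immunoproteasome, had log2 levels of -0.57, -0.34 and -0.61 on LPS arrays and of -0.70, 2.06 and 1.97 on saline arrays. Saline replicate 1 was below every LPS array and the other saline arrays were far above, so the log2 fold change was -1.62 (SE 0.72, limma adjusted p = 0.324) with all arrays, 0.19 without saline replicates 2 and 3, and -2.52 without saline replicate 1. Psmb8 passed the 2-fold criterion in 5 of the 21 alternatives: without saline replicate 1, with the replicate number as a block (limma unadjusted p = 0.0466), with normexp, without background correction, and with limma's trend and robust options.

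Psmb9, another immunoproteasome subunit, had log2 levels of 1.75, 1.64 and 1.36 on LPS arrays and of 1.78, 2.81 and 2.71 on saline arrays. Saline replicate 1 lay just above the highest LPS array. Psmb9 had a log2 fold change of -0.85 (SE 0.31, limma adjusted p = 0.275) and -0.20 without saline replicates 2 and 3. Psme2, of the proteasome activator, had a log2 fold change of -0.50 (SE 0.19, limma adjusted p = 0.282) and of -0.25 without them. The median over the 21 genes was -0.16 with all arrays and -0.06 without saline replicates 2 and 3, where the median over all probes was -0.15. It was -0.36, -0.24, -0.28 and -0.29 without LPS replicate 1, LPS replicate 2, saline replicate 2 and saline replicate 3, and -0.24 over the 16 well above background on all arrays (13 negative), where the median over such probes was 0.02. Without saline replicate 1, 4 of the 21 were lower at the 2-fold criterion, where 3.72% of all probes passed it in either direction. Of these, Psmb8 and Cxcl10 had limma adjusted p-values of 0.00455 and 0.0146. That fit compares the LPS arrays only with saline replicates 2 and 3, the arrays with adrenal transcripts. On saline replicate 1 both genes were near the LPS arrays, so these p-values are not read as an effect of LPS.

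**Figure D3:**
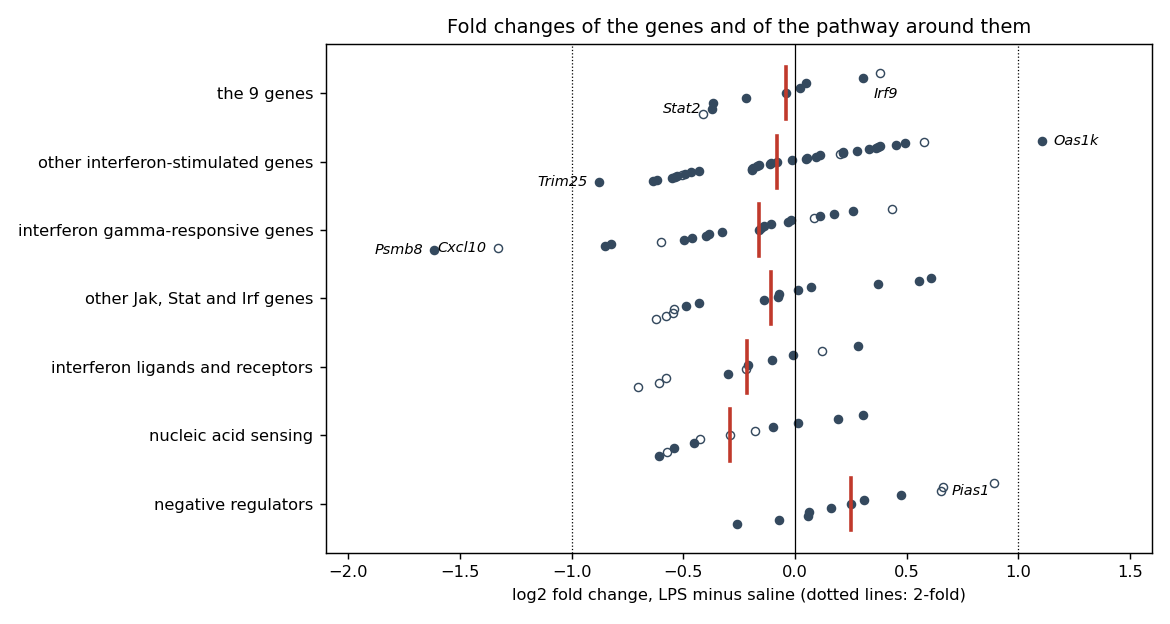
Each point is 1 gene, placed on the x axis by the log2 fold change of LPS-treated over saline-treated ovaries and grouped on the y axis by list; filled points were well above background on all 6 arrays, open points were not, and red lines are list medians. Medians lay between -0.29 and 0.25, and the points beyond 2-fold were Oas1k, Cxcl10 and Psmb8, of which Psmb8 had an unadjusted p above 0.05 with all arrays and no block.

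The levels of Stat2, Psmb8, Psmb9 and the brighter Irf1 probe were highest on saline replicates 2 and 3, the arrays with adrenal transcripts. The same held for Cxcl10, Irf3, Jak3, Mavs, Myd88 and Psme2, and for Trim25, which was raised on saline replicate 1 as well. For Stat2 and Psmb9 the level on saline replicate 1, which carried adrenal cortex markers at a summed level of 3.50, minus the LPS mean was 0.11 and 0.20. For the brighter Irf1 probe and Psmb8 it went the other way, at -1.02 and -0.19. The part of adrenal tissue in these values was not tested.

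Among the immune cell markers, some of macrophages were higher in LPS-treated ovaries before adjustment. The 16 macrophage markers had summed levels of 18.9, 15.8 and 15.4 on LPS arrays and of 16.2, 15.0 and 12.4 on saline arrays, 15 of the 16 being well above background on every LPS array and 12 or 13 on saline arrays. Of all spots, 72.4 to 76.0% were so on LPS arrays and 66.3 to 70.4% on saline arrays. Fitted differences were positive for 12 of the 16, and 4 were higher at an unadjusted p below 0.05, where 2.46% of all probes were. These 4, named after their values were seen, were Mrc1, Adgre1, Csf1r and Fcgr1a, and none passed after adjustment. Another 4 markers had negative differences: Cd68 (-0.16), Cd163 (-0.16), C1qa (-0.07) and Mpeg1 (-0.21), the last well above background on no array. The median log2 level of the 16 overlapped, at -0.80, -0.85 and -1.08 on LPS arrays and -0.89, -0.95 and -1.26 on saline arrays. The cell type lists were not rerun under the alternatives. Mrc1, the mannose receptor, was past the 2-fold criterion, with log2 levels of -3.76, -3.39 and -2.50 on LPS arrays and of -4.99, -4.00 and -4.22 on saline arrays, where it was well above background on none. With saline levels below the dimmest signal well above background on their array raised to it, the estimate was 2.08-fold, without allowance for spread. The limma fit to all arrays gave a 95% interval from 1.18-fold to 4.41-fold (limma adjusted p = 0.271). Adgre1, a surface receptor of macrophages, had a log2 fold change of 0.81 (SE 0.24), Csf1r, the receptor for macrophage growth factor, one of 0.52 (SE 0.15), and Fcgr1a, an antibody receptor, one of 0.52 (SE 0.20), each with all LPS arrays higher. Against saline replicate 1 alone the differences were 1.21 for Adgre1, 0.46 for Csf1r and 0.34 for Fcgr1a. The brightest marker, Aif1, a calcium-binding protein of macrophages, had a log2 fold change of 0.26 (SE 0.21, limma adjusted p = 0.695).

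The 12 lymphocyte and dendritic cell markers had summed levels of 1.99 to 2.49 on LPS arrays and of 1.97 to 2.37 on saline arrays, with 7 positive, a median log2 fold change of 0.21, and 1 higher and 2 lower at an unadjusted p below 0.05, where 2.46% and 14.1% of all probes were. The lower 2, Cd3e and Klrd1, were well above background on no array. The higher 1 was Nkg7, of cytotoxic cells, at 0.83 (SE 0.30) with all LPS arrays higher. Its signal was well above background on only 1 saline array, so this value is not read as an exact fold. The brightest marker, Cd3d, of the T cell receptor complex, was at -0.03 (SE 0.22). The 8 granulocyte markers had summed levels of 0.61 to 0.63 on LPS arrays and of 0.40 to 0.81 on saline arrays, with 4 positive and 4 negative log2 fold changes, a median of -0.07, and 1 higher and 1 lower at an unadjusted p below 0.05. S100a9, a calcium-binding protein of neutrophils and the brightest of them, had a log2 fold change of 0.04 (SE 0.35). The higher 1 was Cpa3, a mast cell protease, at 0.93 (SE 0.26, limma adjusted p = 0.271), with a signal well above background on only 2 saline arrays. The lower 1 was Ngp, a neutrophil granule protein well above background on no array, at -0.62 (SE 0.22). The part of these cell types in the values of the 9 genes was not tested.

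The markers of the ovary's own cells also differed among arrays of 1 treatment. Zp3, a zona pellucida protein of oocytes, had log2 levels of 3.48, 4.97 and 4.63 on LPS arrays and of 4.02, 3.76 and 4.54 on saline arrays. Inha, the inhibin alpha subunit of granulosa cells, had log2 levels of 2.91, 5.08 and 4.49 on LPS arrays and of 3.73, 4.06 and 4.85 on saline arrays. LPS replicate 1 was the lowest of the 6 arrays for both genes. Among the LPS arrays it was the highest for Irf7, Irf9, Isg15, Mx1 and Ifit2, and the lowest for Stat2, both Irf1 probes and Mx2. All 8 oocyte markers had positive fitted differences, with a median of 0.42, where 13602 of the 30367 probes were positive and their median was -0.04. None of the 8 had an unadjusted p below 0.05, against 16.5% of all probes. Of probes well above background on all arrays, as these 8 were, 4.08% had such a p. Among those, 9429 of 17585 were positive, with a median of 0.02. Of the 11 granulosa cell markers 1 was higher at such a p, where 2.46% of all probes were: Kitlg, the ligand of the oocyte receptor Kit, at a log2 fold change of 0.57 (SE 0.18, limma adjusted p = 0.271). Of the 10 stroma and theca markers 1 was higher at the 2-fold criterion, where 0.613% of all probes were: Tcf21, a transcription factor of the gonadal stroma, at 1.08 (SE 0.24, limma adjusted p = 0.271), with all LPS arrays higher and a difference of 0.80 against saline replicate 1 alone. The brightest stroma marker, Col3a1, a collagen, had a log2 fold change of -0.05 (SE 0.23), and Kdr, a receptor of endothelial cells, had one of -0.48 (SE 0.22, limma adjusted p = 0.344).

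**Figure D4:**
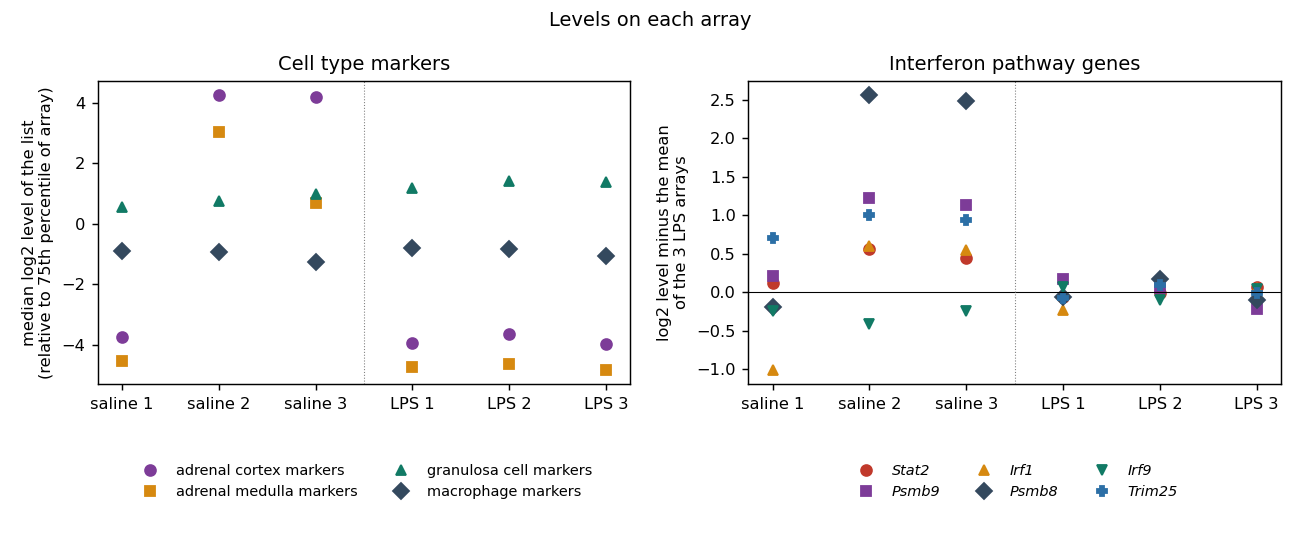
The left panel gives the median log2 level of 4 marker lists on each array, and the right panel gives the log2 level of 6 interferon pathway genes minus their mean on the 3 LPS arrays. Adrenal markers were high on saline replicates 2 and 3 only; Psmb8, Psmb9 and Stat2 were highest there, while Trim25 was raised and Irf9 lowered on all 3 saline arrays.

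The mean centred profile of the 7 genes well above background on all arrays was 0.05, -0.11 and -0.08 on LPS arrays and -0.19, 0.14 and 0.19 on saline arrays. Irf1 weighed most on the low value of saline replicate 1. Its level there minus the mean of saline replicates 2 and 3 was -1.59, and its spots there differed by 1.45. For the others of the 7 this distance ran from -0.90 (Ifit2) to 0.42 (Mx2). A profile without Irf1 was not computed, so the place of saline replicate 1 is not read as shared by the 7 genes. The named genes with the most similar profile over the 6 arrays, by root-mean-square difference in log2 units among 9666 candidates, were Bag5 at 0.047, Psmc1 at 0.053, Ppox at 0.055, Ptpmt1 at 0.057 and Ogfrl1 at 0.058, against a median of 0.27. Bag5 is a cochaperone of Hsp70, Psmc1 a subunit of the proteasome, Ppox an enzyme of heme synthesis and Ptpmt1 a mitochondrial phosphatase.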

How the data were processed

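The authors deposited, for each of the 6 arrays, spot intensity values from Agilent Feature Extraction 10.5.1.1, with the background already subtracted and a surrogate value for spots too dim to measure. The submitters' processing notes name lumi, with no role, and the normalization behind the stated 2-fold and p criterion is not given in the sources used here. The methods name an analysis of variance without saying whether it covers the arrays. Each intensity was converted to log2, and the array's 75th percentile over non-control probes was subtracted. Flagged spots were removed and repeated spots averaged. LPS and saline were compared with lmFit and eBayes of limma 3.58.1 (R 4.3.3) over 30367 probes, each with at least 2 arrays per treatment, and p-values were adjusted over all of them by the Benjamini-Hochberg method. The procedure was tested on simulated data. GeneName was empty in the files, so 17998 probes were named through their RefSeq record. The brightest probe stood for a gene.

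The members and lists were chosen with earlier results of these data known. All members were described. From each list, genes past the 2-fold criterion and well above background throughout at least 1 treatment were named, and otherwise the 3 with the smallest unadjusted p among those well above background on all arrays. From each cell type list, the brightest marker was named. Any other gene named, such as Cxcl10, Trim25, Ifnar1, Ifngr1, Pias1, the relatives of Oas1k and further cell type markers, was picked after its values were seen.

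The arrays shared 1 slide and 1 scan, with the saline arrays and LPS replicate 1 in one row and the others in the second row. No spot was saturated. The number of arrays and the signal over background, not read depth, limit the precision. Deviations from the group mean correlated between same-numbered arrays, over 30364 probes, at 0.298, 0.215 and 0.254 for replicates 1, 2 and 3. Between differently numbered arrays the correlations ran from -0.271 (LPS replicate 1 with saline replicate 3) to 0.160 (LPS replicate 2 with saline replicate 3). The labels give replicate numbers but state no pairing of arrays, and these values do not establish one. In all, 21 alternatives were run, covering background, normalization, dim and flagged spots, the test, slide row, replicate number, probe choice and arrays left out. Those for genes outside the members were chosen after seeing the data. 1 gene of the pathway lists was left out of all counts and is not reported here. Genes of the lists that are not named enter only the counts, medians and plots.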

Additional observations from a re-analysis of the deposited data

How the results depend on the processing

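No member passed the 2-fold criterion in either direction under 20 of the 21 alternatives. Without saline replicates 2 and 3, which leaves 1 saline array assumed to vary like the LPS arrays, 1 was higher (Irf1, at 1.02) and Ifit2, Mx1, Mx2, Psmb8 and Irf3 took the other sign, at 0.23, -0.61, -0.26, 0.19 and 0.11. The median of the members was 0.33 without normalization between arrays, where the median of all probes moved from -0.04 to 0.34, a shift shared by every probe that put Stat2, Irf1, Irf7, Ifit2, Il10rb, Ifna4 and Irf2bp1 at 0.0035, 0.33, 0.16, 0.0068, 0.076, 0.17 and 0.12. With slide row as a block, which leaves LPS replicate 1 alone against the saline arrays because the other row holds no saline array, the median was 0.16, with Irf7 at 0.022, Mx2 at -0.15, Ifit2 at 0.16, Ifit3 at 0.39 and Socs2 at -0.13. With 1 array left out it lay between -0.25 (without saline replicate 1) and -0.021, and both counts stayed between 0 and 0. With normexp or no background correction, Irf1 was 0.025 and 0.0034, Isg15 -0.078 and -0.076, Mx1 -0.0085 and -0.040, and Mx2 -0.013 and -0.0058. With quantile normalization Irf1 was 0.0054 and Ifit3 0.00035, and with the mean of its probes Irf1 was 0.034. With 1 array left out, the ranges that crossed 0 were -0.57 to 0.24 for Irf1, -0.11 to 0.15 for Isg15, -0.12 to 0.88 for Mx1 and -0.075 to 0.16 for Mx2. Stat2 kept its direction in 20 and Irf9 in 21 alternatives, with adjusted p-values from limma or the t-test of 0.191 to 0.996 and of 0.317 to 0.963. The replicate block left 0 members called, with 245 probes higher and 383 lower overall in place of 186 and 327, and Psmb8 became called at -1.62. Without saline replicate 1, 290 probes passed the limma adjusted p, none of them a member. That fit leaves only saline replicates 2 and 3, the arrays with adrenal transcripts, as saline arrays. With any other single array left out, 0 probes passed. Ifit3 had no value in either setting that removed dim probes, nor Mx1 in the stricter. The causes were not tested. Background signal limits what can be said of Ifit3, Mx1 and most interferon ligands.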
